A study of Homo sapiens with 4 samples.

Results

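The RNA of HEK293T cells carrying the T1202K form of PBRM1 was compared with that of cells carrying the P1048R form, each as a single sequencing library. Genes with at least 1 CPM (counts relative to the scaled library size) in either library were compared, which gave 15545 of the 58735 genes counted. Of these, 14643 reached 1 CPM in both libraries, 472 did so in T1202K only and 430 in P1048R only. HEK293T is a human embryonic kidney line, and in all cells of the series PBRM1 had been disrupted by CRISPR. The cells then received, for 48 h, a plasmid for PBRM1 with a GFP tag, either WT or 1 of 3 mutants of its BAH domains (P1048R, T1202K, C1233W). Every group therefore shares the PBRM1 disruption and the transfected tagged protein, the levels are those of plasmid expression, and cells without a plasmid were not analysed here. Each construct was represented by 1 library, so construct, transfection and culture cannot be told apart in any value below, and no p-value was computed.

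PBRM1, also called BAF180, is the defining subunit of PBAF, a member of the SWI/SNF family of chromatin remodelling complexes, which use ATP to move or evict nucleosomes. It carries a row of bromodomains that bind acetylated histone tails, followed by a pair of BAH (bromo-adjacent homology) domains and a DNA-binding HMG box. BAH domains are protein interaction modules found in several chromatin proteins. PBAF shares its ATPase and core with the other SWI/SNF complexes and differs from them by PBRM1, ARID2, BRD7 and PHF10. In the mutant names, P1048R replaces a proline with an arginine and T1202K a threonine with a lysine.

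The coding sequences around the altered residues are shown because they say where the constructs differ. Both are the unaltered reference (GENCODE 29, GRCh38, minus strand of chromosome 3) read 5′ to 3′ in the transcript, with the mutated codon in capitals, and the sequence of the plasmids themselves was not read. Of 18 coding transcripts of PBRM1, 3 hold both residues at these numbers.
P1048 codon, exon 20: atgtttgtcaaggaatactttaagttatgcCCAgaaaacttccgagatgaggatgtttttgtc
T1202 codon, exon 22: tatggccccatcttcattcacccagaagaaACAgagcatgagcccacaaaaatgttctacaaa
The proline codon is at chr3:52586668-52586670 and its window crosses an exon junction, and the threonine codon is at chr3:52576626-52576628 inside 1 exon. The residues lie 154 codons apart.

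T1202K held 10993748 counted reads and P1048R 11205322, with reads on 25670 and 26302 genes. At this depth a floor of 3 reads was 0.276 CPM in T1202K and 0.264 CPM in P1048R. The pair was chosen as the closest with the counts known, so what follows describes that choice: of the 6 pairs of libraries, this one had the fewest genes past the size rule given below, 1.25%. The others had 3.61% (C1233W against T1202K), 4.62% (C1233W against P1048R), 5.42% (T1202K against WT), 5.47% (C1233W against WT) and 7.73% (P1048R against WT). It also had the smallest standard deviation (SD) of log2 ratios, 0.362 against 0.485 to 0.629. Of 27 markers of kidney epithelium, 12 reached 1 CPM. All 27 summed to 400 CPM in T1202K and 378 in P1048R, with AQP2, UMOD and HNF4A at 0 in both. Of 55 neuronal genes 45 reached 1 CPM, and all 55 summed to 1177 and 1257 CPM. Among genes typical of HEK293T were SALL1 at 47.1 CPM in T1202K and 51.9 in P1048R and NEFM at 193 and 181 CPM. Of 17 markers of blood cells, 1 reached 1 CPM, their summed level was 5.62 CPM in T1202K and 3.70 in P1048R, and CD3E, CD3D, MS4A1 and HBB were at 0. Of 14 markers of fibroblasts and endothelium 6 did, and all 14 summed to 39.6 and 30.5 CPM, with VWF, DCN and CDH5 at 0. Of 13 markers of keratinocytes and carcinoma lines 4 did, and all 13 summed to 50.7 and 46.4 CPM, with KRT5 and KRT14 at 0. Mitochondrial transcripts were 5.53% of reads in T1202K and 5.63% in P1048R.

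PBRM1 itself was the gene with the largest difference in CPM. It took 172834 reads in T1202K and 105120 in P1048R, or 15925 and 9261 CPM, a ratio of 1.72-fold with a 95% counting interval of 1.71 to 1.73. These reads were 1.57% of the T1202K library and 0.938% of the P1048R library, and the counts do not separate plasmid RNA from RNA of the disrupted locus. The P1048R library thus held less PBRM1 RNA, and the part of that difference in the other values was not tested. The other subunits that mark PBAF were level in both libraries. ARID2, which helps assemble the complex, was at 73.6 CPM in T1202K and 79.8 in P1048R, BRD7, a bromodomain subunit, at 197 and 190, and PHF10, a subunit with PHD fingers, at 207 and 214. The log2 ratios (T1202K over P1048R) of ARID2, BRD7 and PHF10 were -0.12, 0.05 and -0.04, and each counting interval included 0.

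The remaining SWI/SNF genes showed small ratios. The ATPase SMARCA4 was at 361 CPM in T1202K and 327 in P1048R (log2 ratio 0.14, interval 0.08 to 0.21), and the scaffold subunit SMARCC1 at 404 and 387 CPM (0.06, -0.00 to 0.12). Lowest in T1202K among the 14 shared core genes was SMARCE1, an HMG-box subunit, with 23.96 against 30.57 CPM (-0.35, -0.59 to -0.12), and highest was ACTB, beta-actin, with 1293 against 990 CPM (0.39, 0.35 to 0.42). Of the 11 subunits of the BAF and non-canonical BAF complexes, ARID1A was at 217 and 212 CPM and BRD9 at 105 and 113 CPM. The median log2 ratio was 0.09 over the shared core and -0.11 over the BAF subunits, and no member of either list passed the size rule.

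A gene passed the size rule when its ratio was at least 2-fold and the 95% counting interval of the ratio excluded 0 on the log2 scale. By this rule 195 genes (1.25% of those compared) differed, 88 higher in T1202K (0.566%) and 107 lower (0.688%). They were low in abundance: 191 had a mean under 5 CPM, the largest single count among them was 184 reads, and their median of reads summed over both libraries was 32 against 583 for all genes compared. Of the 195 genes, 124 reached 1 CPM in only 1 library, 59 of them higher and 65 lower in T1202K, and these had entered the comparison only through the library where they were high. Of those at 1 CPM in both, 29 were higher and 42 lower. Another 161 genes had a 2-fold ratio with an interval that included 0. Around the threshold, 24 passing genes had a ratio under 2.1-fold, and 40 genes whose interval excluded 0 fell just short of it, at 1.9-fold to 2-fold. No passing gene had 0 reads in a library.

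**Figure D1:**
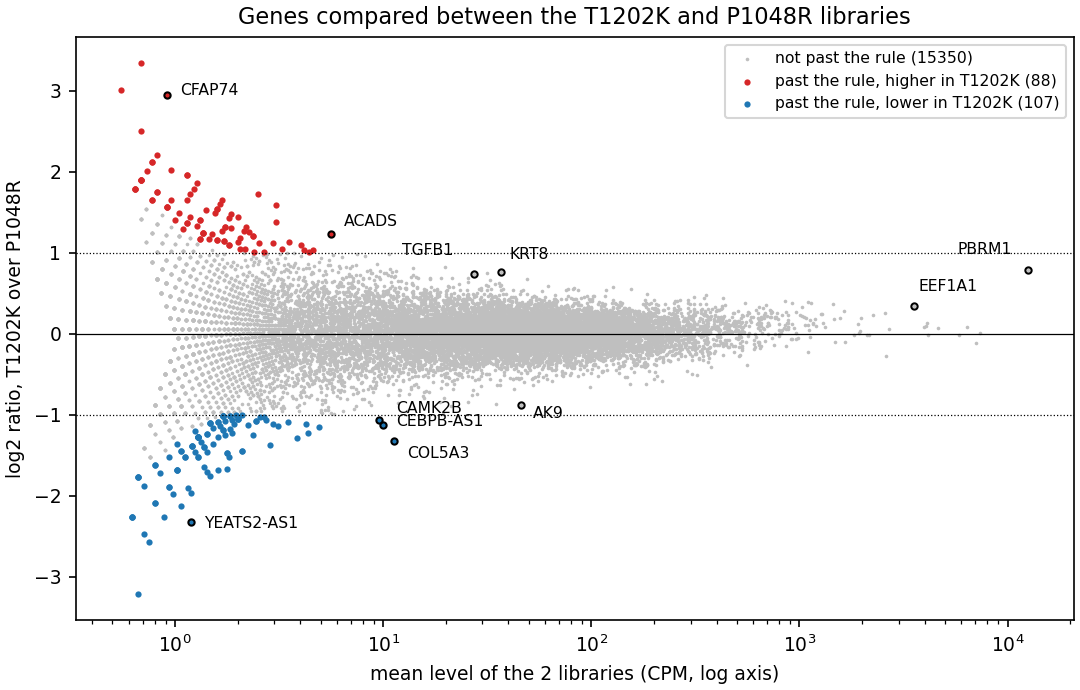
Each point is 1 of the 15545 genes; the x axis is the mean level of the T1202K and P1048R libraries in CPM on a log axis and the y axis the log2 ratio of T1202K over P1048R, with dotted lines at 2-fold. Red points passed the size rule as higher in T1202K (88) and blue points as lower (107), and all but 4 of them had a mean under 5 CPM, while PBRM1 stood at the right edge with a log2 ratio of 0.78.

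The genes higher in T1202K whose intervals stood farthest from 0 were of mixed function. ACADS, the short-chain acyl-CoA dehydrogenase of mitochondrial fatty acid oxidation, had 86 reads in T1202K and 38 in P1048R (7.92 and 3.35 CPM), a log2 ratio of 1.23 (0.68 to 1.83). It was the 1 gene of this direction with a mean of at least 5 CPM. The 3 others at 1 CPM in both libraries were counted more thinly. NRTN, neurturin, a ligand of the GDNF family, had 50 reads in T1202K and 17 in P1048R, a log2 ratio of 1.59 (0.80 to 2.51). CD82, a tetraspanin of the cell surface, had 42 reads in T1202K and 13 in P1048R, a log2 ratio of 1.72 (0.83 to 2.78). FOS, an immediate early transcription factor of the AP-1 family, had 48 reads in T1202K and 19 in P1048R, a log2 ratio of 1.38 (0.61 to 2.25).

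The other 10 named genes of this direction reached 1 CPM in T1202K only. CFAP74, a protein of the ciliary axoneme, had 18 reads in T1202K and 2 in P1048R (log2 ratio 2.95, 1.17 to 6.39). Enzyme genes among them were PADI3, a peptidylarginine deiminase, and NT5C1A, a cytosolic nucleotidase, each with 20 reads in T1202K and 5 in P1048R (1.96), and MDH1B, with 17 and 4 reads (2.02). PPP1R32 had 22 and 6 reads (1.86). Pseudogenes by symbol were SPDYE21P with 11 reads in T1202K and 1 in P1048R (3.00, 0.74 to 8.95), ZNF321P with 13 and 2 (2.50) and NDUFV2P1 with 28 and 9 (1.65), whose reads may be shared with related genes. Antisense by symbol were BDNF-AS with 27 reads in T1202K and 9 in P1048R (1.60) and SRD5A3-AS1 with 21 and 6 (1.79). By biotype SRD5A3-AS1 is a processed transcript. All of these rest on fewer than 30 reads in the higher library.

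Among genes lower in T1202K, 3 had a mean of at least 5 CPM. COL5A3, which encodes a chain of the fibrillar collagen type V, had 70 reads in T1202K and 184 in P1048R (6.45 and 16.2 CPM), a log2 ratio of -1.32 (-1.75 to -0.93). CAMK2B, the beta subunit of calcium/calmodulin-dependent protein kinase II, had 68 reads in T1202K and 156 in P1048R (6.27 and 13.7 CPM), a log2 ratio of -1.13 (-1.57 to -0.71). CEBPB-AS1, a transcript opposite the transcription factor gene CEBPB, had 67 reads in T1202K and 147 in P1048R (6.17 and 13.0 CPM), a log2 ratio of -1.06 (-1.51 to -0.64). These 3 were the best counted of all genes past the rule.

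The 6 other protein-coding genes named in this direction had fewer reads. ETV2, an ETS factor of endothelial and blood development, had 24 reads in T1202K and 62 in P1048R (log2 ratio -1.29, -2.05 to -0.60). TRIM67, a TRIM family ubiquitin ligase of neural tissue, had 17 reads in T1202K and 47 in P1048R (-1.38, -2.30 to -0.58). CYP46A1, the hydroxylase that clears cholesterol from the brain, had 33 reads in T1202K and 77 in P1048R (-1.15, -1.79 to -0.55). SV2C, a synaptic vesicle glycoprotein, had 5 and 21 reads (-1.90), CARNS1, carnosine synthase, 9 and 31 (-1.66), and ALB, serum albumin, 4 and 18 (-1.97). The remaining 5 named genes of this direction were non-coding: YEATS2-AS1 with 4 reads in T1202K and 23 in P1048R (-2.32), CPB2-AS1 with 28 and 69 (-1.22), TMEM51-AS1 with 10 and 31 (-1.52), LINC02044 with 7 and 25 (-1.70) and LINC00106 with 12 and 35 (-1.44). Beside ETV2, the endothelial markers VWF and CDH5 were at 0 reads in both libraries, while KDR was at 1.47 CPM in T1202K and 0.705 in P1048R and CLDN5 at 1.11 and 2.03.

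The named genes that are antisense by symbol were set beside the genes they overlap. No source used here states the strand setting of the counts, and reads of overlapping genes may have been exchanged. CEBPB had 122 reads in T1202K and 98 in P1048R (log2 ratio 0.38, -0.01 to 0.78), where CEBPB-AS1 had a negative ratio. TMEM51 had 108 and 78 reads (0.53, 0.10 to 0.97), again opposite in sign to TMEM51-AS1. YEATS2 had 942 and 918 reads (0.10, -0.03 to 0.23), SRD5A3 143 and 146 (0.03, -0.31 to 0.38) and BDNF 14 and 14 (0.06, -1.11 to 1.24). CPB2 did not reach 1 CPM in either library. None of the overlapped genes that were compared passed the rule.

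Most genes differed little, and the spread narrowed with level. Over all genes the median log2 ratio was 0.02, the quartiles were -0.16 and 0.18, and 91.1% of genes were within 1.5-fold. The counting interval excluded 0 for 4632 genes, or 29.8%, with 2522 above 0 (16.2%) and 2110 below (13.6%). The SD of the log2 ratio was larger than the counting error of the same genes at every level. At the lowest levels the filter itself widens the spread. All genes with a mean under 1 CPM reached 1 CPM in 1 library only, as did 25.8% of those between 1 and 2 CPM. It was 0.609 against 0.524 between 1 and 2 CPM, 0.350 against 0.234 between 5 and 10 CPM, 0.214 against 0.110 between 20 and 50 CPM, and 0.174 against 0.0472 at 100 CPM and over. Above 20 CPM no gene passed the 2-fold rule, and the largest ratio at 100 CPM and over was that of PBRM1. How far the spread beyond counting reflects cultures, transfections or constructs cannot be told apart with 1 library each.

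**Figure D2:**
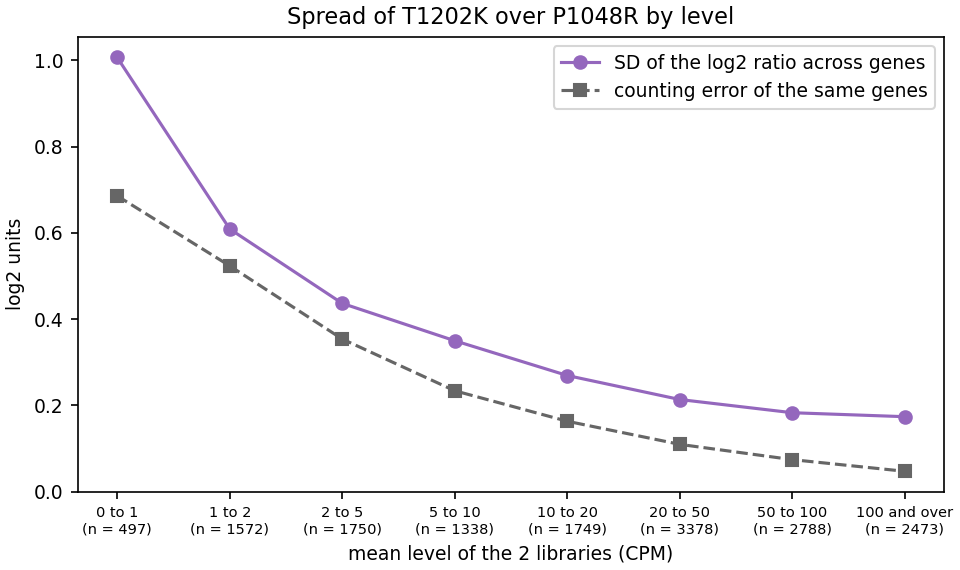
The x axis bins genes by the mean level of both libraries in CPM, with the number of genes in each bin, and the y axis is in log2 units. The solid line is the SD of the log2 ratio across genes and the dashed line the counting error of the same genes. Both fall with level, from 1.01 and 0.686 under 1 CPM to 0.174 and 0.0472 at 100 CPM and over. All genes under 1 CPM entered through 1 library only, so the filter widens the spread there.

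At a threshold of 1.5-fold, chosen after the values were seen, 264 genes were higher in T1202K (1.70%) and 275 lower (1.77%). Among the 8639 genes with a mean of at least 20 CPM, 18 were higher (0.208%) and 23 lower (0.266%). These well-counted genes, also picked after their values were seen, carry narrow counting intervals. KRT8, an epithelial keratin, had 505 reads in T1202K and 311 in P1048R, a log2 ratio of 0.76 (0.56 to 0.97). Its partner KRT18 was at 72.7 and 55.8 CPM (0.38, 0.23 to 0.54). SLC7A8, an amino acid transporter, had 429 and 267 reads (0.75), and SLC2A3, the glucose transporter GLUT3, 477 and 331 (0.59). TGFB1, the growth factor, had 371 reads in T1202K and 232 in P1048R (0.74, 0.50 to 0.98), and TIMP1, an inhibitor of matrix metalloproteinases, 287 and 186 (0.69, 0.42 to 0.96). HSPB1, a small heat shock protein, had 657 and 429 reads (0.68, 0.50 to 0.86). CST3, cystatin C, had 454 and 309 reads (0.62), and NES, the intermediate filament nestin, 305 and 209 (0.61).

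In the other direction, AK9, an adenylate kinase, had 350 reads in T1202K and 675 in P1048R, a log2 ratio of -0.88 (-1.07 to -0.69). EPM2A, the glycogen phosphatase laforin, had 215 and 381 reads (-0.76). SCN8A, a neuronal sodium channel, had 223 and 378 reads (-0.70, -0.94 to -0.45), and ANKRD1, a target of YAP, 827 and 1366 (-0.66, -0.79 to -0.53). PPP3CC, a catalytic subunit of calcineurin, had 249 and 406 reads (-0.64). The zinc finger genes ZNF624 (18.3 CPM in T1202K, 33.0 in P1048R), ZNF441 (21.2 and 35.5) and ZBTB26 (27.7 and 43.0) were in this group too. Over all 258 protein-coding genes with a symbol starting ZNF and a mean of at least 20 CPM, a set formed after these were seen, the median log2 ratio was -0.13, with 13 intervals above 0 and 93 below. The 8219 other protein-coding genes of that level had a median of 0.02, with 2012 above and 1510 below. The ZNF genes also had a lower median GC content, 43.2% against 46.6%, and the ZNF set was not examined with the GC trend removed.

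Large differences in CPM came from abundant genes with small ratios. EEF1A1, the elongation factor that delivers tRNA to the ribosome, was at 3983 CPM in T1202K and 3141 in P1048R (log2 ratio 0.34), and EEF2, the translocation factor, at 2444 and 2074 (0.24). The cytosolic chaperones HSP90AB1 (2816 and 2350 CPM, 0.26) and HSP90AA1 (4288 and 3901 CPM, 0.14) followed, with ACTG1, gamma-actin (1626 and 1259 CPM, 0.37). Lower in T1202K were EIF3A, a subunit of a translation initiation factor (1017 and 1188 CPM, -0.22), SMC3, a subunit of the cohesin ring (484 and 633 CPM, -0.39), and TAF1D, which acts in RNA polymerase I transcription and hosts small nucleolar RNAs (266 and 379 CPM, -0.51). The mitochondrial MT-RNR2 was at 6737 and 7312 CPM (-0.12) and MT-ATP8 at 1594 and 1716 CPM (-0.11). XIST, a long non-coding RNA, was at 2361.5 CPM in T1202K and 2850.7 in P1048R (-0.27, -0.30 to -0.25).

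Gene lists were then described by their counts and medians, beside the same over all genes, of which 52.6% had a ratio above 0. Of 1079 list members compared, 9 (0.834%, against 1.25% of all genes) passed the 2-fold rule, and no list had more than 3. Besides FOS, COL5A3 and ALB these were MAP2, a neuronal microtubule protein, with 30 reads in T1202K and 14 in P1048R (log2 ratio 1.14), TUBB3, neuronal beta-tubulin, with 7 and 22 (-1.52), TJP3, a tight junction protein, with 29 and 11 (1.42), ITGB4, an integrin of hemidesmosomes, with 14 and 4 (1.75), L1CAM, a neural adhesion molecule, with 14 and 30 (-1.01), and PSMB10, an immunoproteasome subunit, with 12 and 30 (-1.22). The tubulin list and the adhesion list each held passing members of both signs.

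Interval counts of a list are to be read against 16.2% of all genes above 0 and 13.6% below, and they depend on level: the shares were 35.6% and 25.8% at 100 CPM and over, 18.8% and 16.5% between 20 and 100 CPM, and 7.01% and 6.56% under 20 CPM. Lists of protein synthesis and folding had medians above that of all genes. Of 75 cytosolic ribosomal proteins, 74 had a ratio above 0 and 66 a counting interval above 0 (88.0%), with none below, and the median log2 ratio was 0.20. Their summed level was 43180 CPM in T1202K and 37740 in P1048R. RPL29 had the highest ratio (413 and 296 CPM, 0.48, 0.41 to 0.54) and RPS27A the lowest (-0.02). Of 20 heat shock genes, 18 lay above 0 and 14 had an interval above 0 with none below (median 0.19), among them HSPA8, the constitutive cytosolic chaperone (946 and 782 CPM, 0.27), and HSPA1A, its inducible relative (970 and 733 CPM, 0.40), although HSPA1A and HSPA1B are near-identical and may share reads. Endoplasmic reticulum chaperones were nearer the centre, with 9 of 21 intervals above 0 and 1 below (median 0.10). Of 33 proteasome subunits, 17 intervals were above 0 and 1 below (median 0.14), and of 23 ribosome biogenesis genes 11 were above and 3 below (median 0.05).

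**Figure D3:**
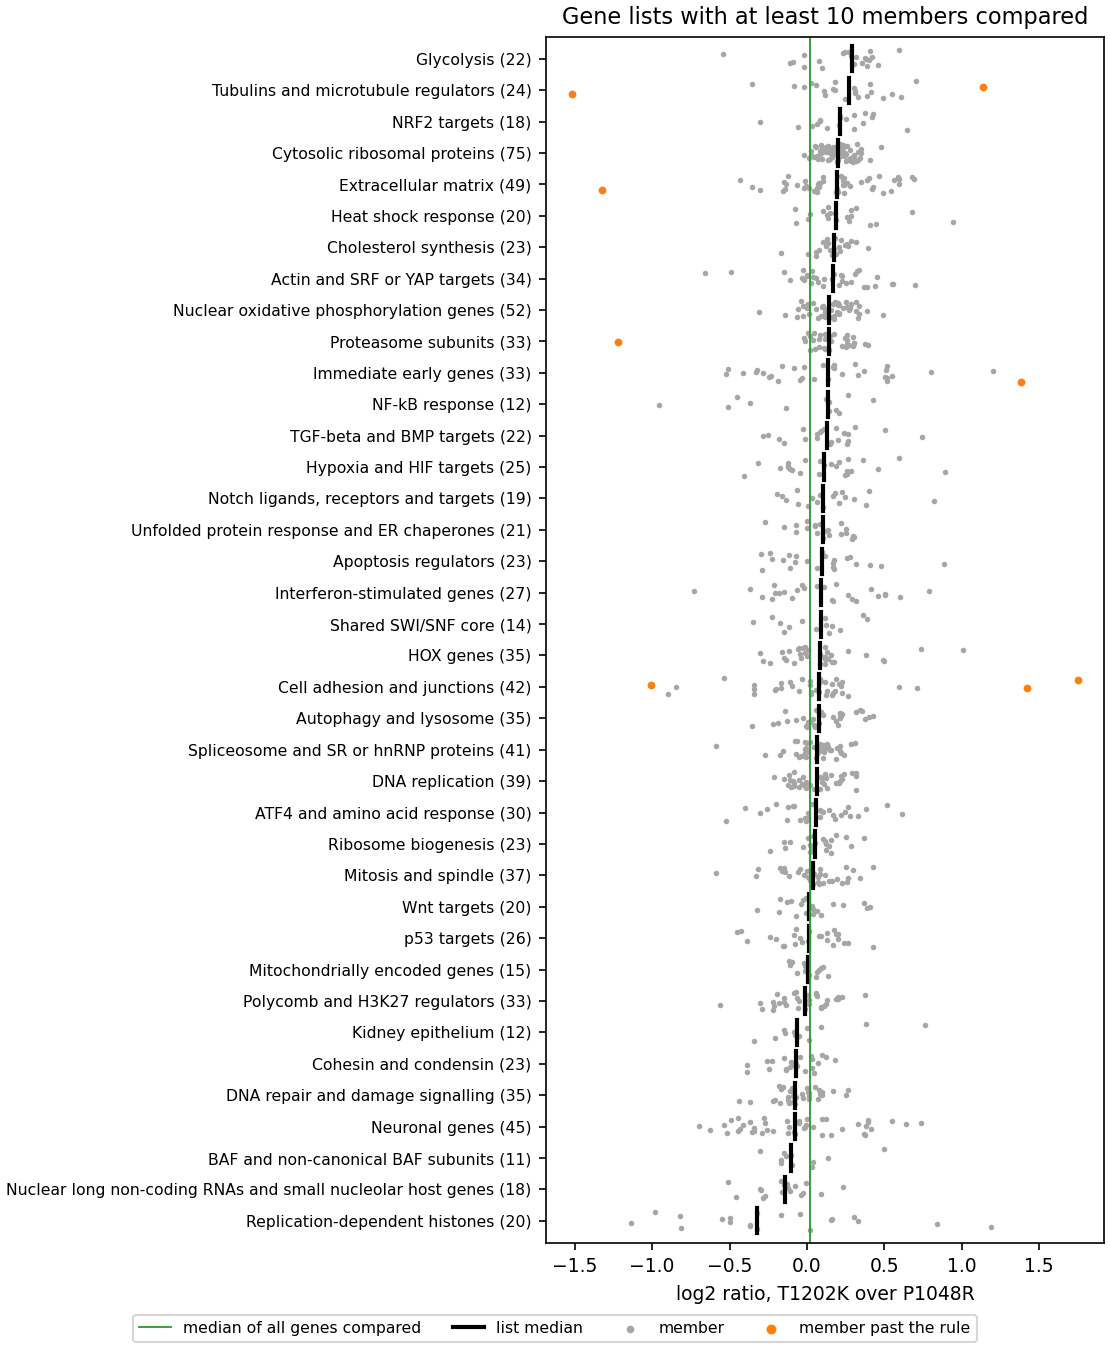
Each row is 1 of the 38 gene lists with at least 10 members compared, with that number in parentheses, and the x axis is the log2 ratio of T1202K over P1048R. Grey points are members, orange points are members past the size rule, black bars are list medians and the green line is the median of all genes; the ribosomal proteins sit in a narrow band around 0.20, while the histones spread from -1.13 to 1.19.

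Metabolic lists also had medians above that of all genes, apart from the genes of the mitochondrial genome. Of 22 glycolysis genes, 15 (68.2%) had an interval above 0 and 1 below, with a median of 0.29. GAPDH was at 1035 CPM in T1202K and 798 in P1048R (0.38, 0.34 to 0.42), PGK1 at 336 and 250 (0.42), PFKL at 89.7 and 65.2 (0.46) and LDHA at 809 and 670.5 (0.27), whereas ENO3, the muscle enolase, was at 7.83 and 11.5 (-0.55). Of 23 cholesterol synthesis genes, 10 intervals were above 0 and none below (median 0.18). Of 52 nuclear genes of oxidative phosphorylation, 26 were above and none below (median 0.14), led by NDUFB7 of complex I at 31.6 and 22.5 CPM (0.49) and SDHB of complex II at 142 and 109 CPM (0.39). The 15 mitochondrially encoded genes had 7 intervals above and 4 below (median 0.00), from MT-RNR2 at -0.12 to MT-ND3 at 0.13. Of 18 NRF2 targets 10 were above and 1 below (median 0.21), with the pentose phosphate enzyme TKT at 229 and 171 CPM (0.42) and FTH1, ferritin heavy chain, at 95.3 and 70.8 CPM (0.43).

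Cytoskeleton and matrix lists lay on the same side with wider spread. Of 24 tubulins and microtubule regulators, 15 intervals were above 0 and 3 below (median 0.27), with TUBB at 1252 and 958 CPM (0.39). Of 34 actin genes and targets of SRF or YAP, 16 were above and 2 below (median 0.17), including VIM, vimentin, at 711 and 564 CPM (0.33) and TAGLN2 at 185 and 126 CPM (0.55), with ANKRD1 at the low end. Of 49 extracellular matrix genes, 20 were above and 1 below (median 0.20). The 1 below was COL5A3, while other collagens were at COL2A1 138 and 117 CPM (0.24) and COL1A1 23.4 and 16.7 CPM (0.49). Of 42 adhesion and junction genes, 6 were above and 5 below (median 0.08), with beta-catenin, CTNNB1, at 374 and 320 CPM (0.23).

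Lists of histones, nuclear RNAs and chromosome maintenance had medians below that of all genes. Of 65 replication-dependent histone genes, 20 were compared and 2 of them reached 1 CPM in 1 library only. Their median log2 ratio was -0.32, with 1 interval above 0 and 5 below. HIST3H2BB was at 3.41 CPM in T1202K and 6.78 in P1048R (-0.98, -1.60 to -0.41), while HIST1H2BK was at 30.4 and 24.1 CPM (0.33, 0.10 to 0.57), so members differed in sign. Of 18 nuclear long non-coding RNAs and small nucleolar host genes, 10 were below and 1 above (median -0.14), with NEAT1, the scaffold of paraspeckles, at 94.4 and 130 CPM (-0.46, -0.58 to -0.34). Of 23 cohesin and condensin genes, 9 were below and 2 above (median -0.07), with SMC4 at 471 and 564 CPM (-0.26) and NIPBL, the cohesin loader, at 231 and 274 CPM (-0.25). Of 35 DNA repair genes, 8 were below and 5 above (median -0.08), from BRCA2 (-0.44, -0.57 to -0.31) to PARP1 at 1056 and 879 CPM (0.27).

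In lists of signalling, cell cycle and lineage the counts were as follows. Of 33 immediate early genes, 5 intervals were above 0 and 3 below: beside FOS, ATF3 was at 169 CPM in T1202K and 244 in P1048R (-0.52, -0.61 to -0.44), KLF10 at 65.2 and 93.1 (-0.51) and JUN at 374 and 363 (0.04). Of 12 NF-kB response genes none was above and 3 below, including RELB at 8.85 and 17.2 CPM (-0.95, -1.33 to -0.60) and NFKB2 at 50.03 and 71.2 CPM (-0.51), although the list median was 0.13 (relative to all genes 0.116, but -0.156 with at least 5 CPM in either library). Of 27 interferon-stimulated genes 4 were above and 1 below. Of 37 mitosis genes 11 were above and 7 below, from UBE2C (93.2 and 69.4 CPM, 0.43) to CENPE, the kinetochore motor (175 and 262 CPM, -0.59), and of 39 DNA replication genes 17 were above and 4 below, including MCM2 at 259 and 208 CPM (0.32). Of 45 neuronal genes 6 were above and 10 below (median -0.08), with NEFL at 108 and 82.9 CPM (0.38) against SCN8A. Of 33 Polycomb genes 6 were above and 9 below, with EZH2, the H3K27 methyltransferase, at 199 and 243 CPM (-0.29), and of 35 HOX genes 4 were above and 2 below. Of 26 p53 targets 3 were above and 4 below, with CDKN1A at 19.6 and 14.6 CPM (0.42) and GADD45A at 51.4 and 67.4 CPM (-0.39). The count of intervals above and below 0 was 9 and 4 of 30 for ATF4 targets, 5 and 3 of 25 for hypoxia targets, 3 and 1 of 19 for Notch genes, 5 and 1 of 22 for TGF-beta targets, and 2 and 0 of 20 for Wnt targets. It was 7 and 3 of 23 for apoptosis regulators, 8 and 3 of 35 for autophagy genes, 19 and 3 of 41 for spliceosome genes (46.3% and 7.32%) and 2 and 0 of 12 for kidney epithelium.

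The ribosomal protein genes are shown at their start sites because nearly every member had a ratio above 0, and because their transcripts are known to begin with a pyrimidine tract that ties their translation to growth signals. The sequences are from RefSeq (GRCh38.p14), from 50 bases before the annotated start to 20 after it, 5′ to 3′ on the gene's strand, with the letters CTTTC in capitals. They are abundant members that hold those letters at the start, and the choice was not made over all members of the list.
RPLP1, chr15:69452768-69452837, plus strand: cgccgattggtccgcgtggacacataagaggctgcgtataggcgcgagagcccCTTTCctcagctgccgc
RPL9, chr4:39458903-39458972, minus strand: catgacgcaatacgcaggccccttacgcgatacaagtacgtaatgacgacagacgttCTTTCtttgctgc
RPL7A, chr9:133348168-133348237, plus strand: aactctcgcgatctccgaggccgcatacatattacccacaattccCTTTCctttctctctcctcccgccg
RPL35, chr9:124861938-124862007, minus strand: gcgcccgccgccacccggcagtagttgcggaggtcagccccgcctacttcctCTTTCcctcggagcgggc
RPLP1 was at 772 CPM in T1202K and 666 in P1048R (log2 ratio 0.21), RPL9 at 721 and 676 (0.09), RPL7A at 778 and 611 (0.35) and RPL35 at 743 and 621 (0.26). CTTTC on the sense strand in that window of 35 bases around the start was found in 27 of 60 ribosomal protein genes with an entry. It was found in 453 of 10884 compared genes with an entry and in 1289 of all 27305 promoters. On either strand of the 300-base promoter it was found in 76.7% of the ribosomal protein genes, 49.8% of compared genes and 54.9% of all promoters. The median log2 ratio was 0.205 for the 27 genes with it in the 35-base window and 0.200 for the 33 without. Over other compared genes it was 0.018 for 426 with it and 0.019 for 10398 without.

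Ratios also ran with the class of gene. By the size rule 0.566% of all genes were higher in T1202K and 0.688% lower. Over 13122 protein-coding genes the median log2 ratio was 0.03, with 49 higher (0.373%) and 41 lower (0.313%) by that rule. That order turned with total counts (41 and 46), DESeq2 size factors (41 and 48) and the trend on GC content and length removed (42 and 49). Over 725 antisense genes the median was -0.14, with 6 higher (0.828%) and 32 lower (4.41%), so that antisense genes were 32 of the 107 lower genes. Only 9 of those 32 reached 1 CPM in both libraries, and 22.6% of all antisense genes compared reached it in 1 library only. Over 509 long intergenic RNAs the median was -0.12, with 7 higher (1.38%) and 16 lower (3.14%). Over 337 processed pseudogenes it was 0.12, with 10 higher (2.97%) and 4 lower (1.19%). Without the filter on level, the median relative to all genes went from -0.138 to -0.0286 for long intergenic RNAs. It went from 0.106 to 0.0401 for processed pseudogenes and from -0.157 to -0.166 for antisense genes. These classes are low in level, with a median of 1.94 CPM for antisense genes against 35.7 for protein-coding genes. Restricted to a mean of at least 5 CPM the medians were -0.13 for 143 antisense genes, -0.15 for 106 long intergenic RNAs and 0.22 for 53 processed pseudogenes, against 0.02 for all 11726 genes of that level. At that level 1 antisense gene passed the size rule, as lower, and no long intergenic RNA or processed pseudogene did. Processed pseudogenes are near copies of abundant genes and may take their reads.

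**Figure D4:**
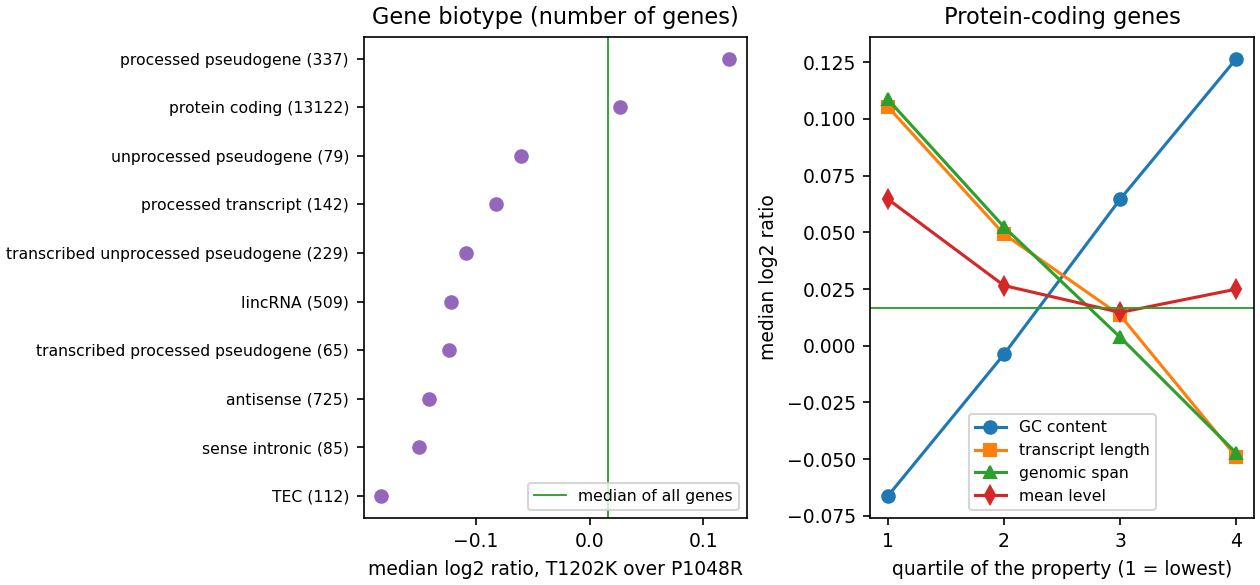
The left panel gives the median log2 ratio of T1202K over P1048R for each gene biotype with its number of genes, and the right panel the same median for protein-coding genes in quartiles of GC content, transcript length, genomic span and mean level; green lines mark the median of all genes. Antisense, sense intronic and unconfirmed (TEC) genes lie at -0.14 to -0.18, and the median runs from -0.07 to 0.13 with GC content.

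The ratio ran with GC content and length as well. In protein-coding genes the median log2 ratio was -0.07 in the quartile of lowest GC content, then -0.00, 0.06 and 0.13 in the highest. From the shortest to the longest transcripts the quartile medians were 0.11, 0.05, 0.01 and -0.05, and across genomic span they were 0.11, 0.05, 0.00 and -0.05. Across quartiles of mean level they were 0.06, 0.03, 0.01 and 0.02. As a description over the 8638 genes with a mean of at least 20 CPM, which all come from the same pair of libraries, Spearman's rho of the ratio was 0.388 with GC content and -0.308 with length. With a smooth trend on GC content and length removed, the medians relative to all genes were 0.145 for ribosomal proteins (0.182 before), 0.227 for glycolysis (0.277), 0.169 for tubulins (0.257), -0.0235 for cohesin and condensin (-0.0869) and -0.0345 for DNA repair (-0.0933). For histones they were -0.357 and -0.339, so that list was as far from the whole without the trend. Of all 42 lists, 26 were nearer the whole with the trend removed and 16 farther, among them heat shock (0.169 to 0.191), proteasome (0.123 to 0.140) and hypoxia (0.0902 to 0.130), and 3 changed sign. The shared SWI/SNF core went from 0.0707 to 0.0256 and the TGF-beta list from 0.113 to 0.0436. With that trend removed, each of the 77 genes tracked through the alternatives stayed on its side of the size rule. L1CAM lost its call under other alternatives, given in the last section.

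Among the autosomes and chromosome X, medians ran from -0.03 on chromosome 13 to 0.08 on chromosome 22, and the share of genes past the rule from 0.741% on chromosome 13 to 1.92% on chromosome 21. The genes higher in T1202K past the rule had a median GC content of 52.8% and those lower 47.7%, against 48.0% for all genes compared. Their median transcript lengths were 2128 and 2210 bases, both under the 3448 bases of all genes.

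The levels of the named genes in the other libraries, scaled over all 4, are given as a description, since the pair was compared without them. Of the 14 genes named as lower in T1202K, P1048R held the highest level of the 4 libraries for 12, while LINC00106 was highest in WT (5.35 CPM against 2.93 in P1048R) and ALB in C1233W (1.74 against 1.51). The lowest level was in WT for 11 of them and in T1202K for 3, which include YEATS2-AS1 and CARNS1. Of the 14 named as higher, P1048R held the lowest level for 12, the exceptions being PPP1R32 (0.214 CPM in WT, 0.503 in P1048R) and NDUFV2P1 (0.642 in WT, 0.754 in P1048R, 0.580 in C1233W), and T1202K the highest for 13, with FOS highest in C1233W. The rule itself fixes the order of T1202K and P1048R in these genes, and choosing by that difference favours those libraries as the extremes of the 4. COL5A3 was at 0.535 CPM in WT, 15.4 in P1048R, 6.18 in T1202K and 2.42 in C1233W. In the same order CAMK2B was at 2.78, 13.1, 6.005 and 6.77 CPM, and CEBPB-AS1 at 1.71, 12.3, 5.92 and 5.22 CPM. ETV2 was at 0.321, 5.19, 2.12 and 2.32 CPM, and AK9 at 18.7, 56.5, 30.9 and 36.5 CPM. KRT8 was at 45.2, 26.1, 44.6 and 45.4 CPM, TGFB1 at 30.5, 19.4, 32.8 and 31.5 CPM, and HSPB1 at 59.6, 35.9, 58.0 and 62.9 CPM; AK9 and these 3 were picked after their values were seen. ACADS was at 4.71, 3.18, 7.59 and 5.71 CPM and NRTN at 3.00, 1.42, 4.42 and 4.16 CPM. PBRM1 itself was at 22768, 8805, 15262 and 60509 CPM, and P1048R held the least PBRM1 RNA of the 4 libraries.

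**Figure D5:**
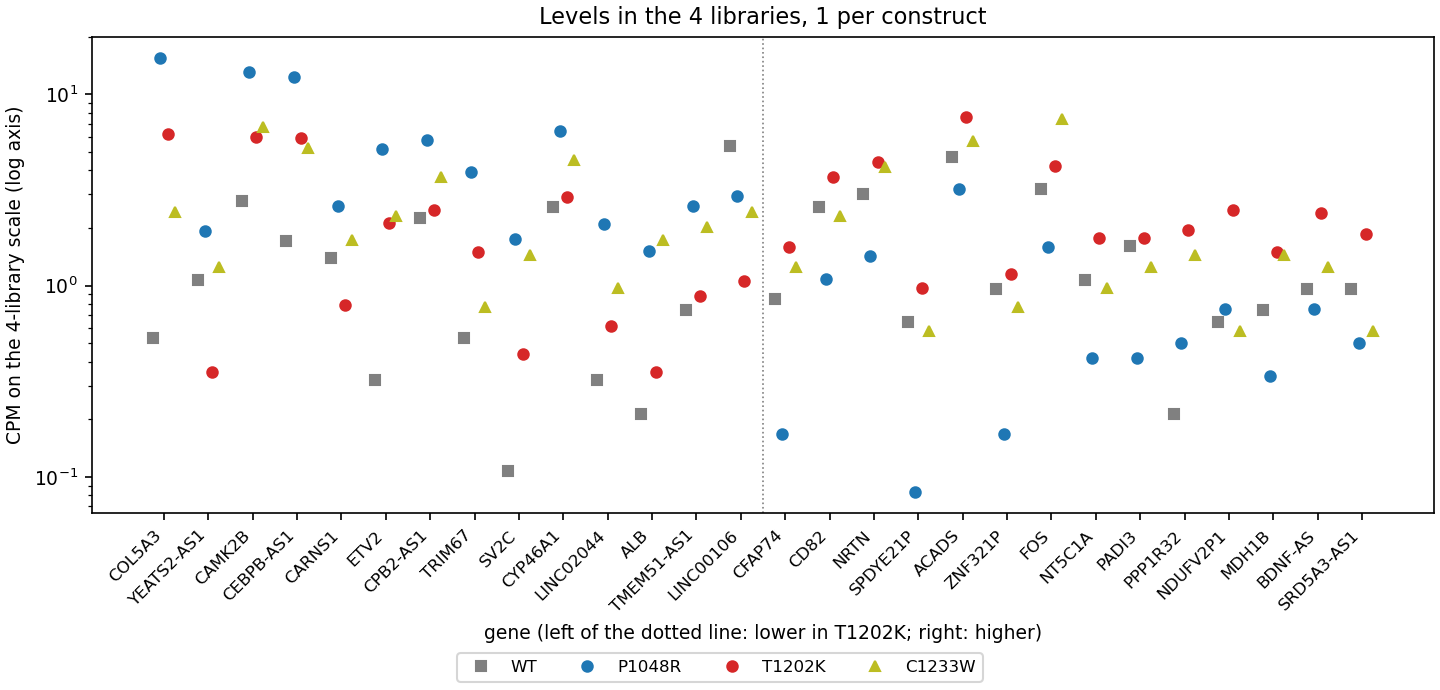
Levels of the 28 genes that the naming rule took from those past the size rule are plotted in CPM on a log axis for the 4 libraries, 1 point per library (squares WT, blue circles P1048R, red circles T1202K, triangles C1233W). Left of the dotted line are the 14 genes lower in T1202K, with P1048R highest for 12, and right of it the 14 higher, with P1048R lowest for 12. The genes were chosen by the difference between T1202K and P1048R, which favours those libraries as the extremes of the 4.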

How the data were processed

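The authors deposited raw read counts, whole numbers for each gene in each library and not normalized. According to the submitters' processing notes, which give no versions, the tools were HISAT2, Trim Galore and featureCounts, with the human build hg38. Libraries were stranded, per the labels' protocols, but no source used here states the strand setting of the counting or the annotation release, so counts of antisense and overlapping genes, pseudogenes and near-identical copies are uncertain.

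All 58735 gene identifiers matched GENCODE 29, which gave coordinates, GC content and transcript length. Reads were scaled by TMM over both libraries in edgeR 4.0.16 (R 4.3.3; factors 0.987 for T1202K and 1.013 for P1048R), and CPM refers to these sizes. Ratios were taken after adding 0.5 reads to each count. Their 95% bounds were converted from the exact (Clopper-Pearson) binomial interval for the fraction of a gene's reads in 1 library, and intervals and floors cover counting error only. The comparison was tested on simulated data with counting error only, whose changed genes were drawn from those with at least 5 CPM. That test does not cover the level of most genes past the rule, of which 191 had a mean under 5 CPM.

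Named genes were PBRM1 and the PBAF subunits, the 14 genes with an official symbol in each direction past the rule whose interval bound nearest 0 was farthest from it, list members past the rule, up to 4 most abundant and 4 most different members of each list, and the 6 largest CPM differences in each direction. The pair of libraries, the lists and the rules were chosen with earlier results of these data known. Alternatives were total counts, DESeq2 1.42.0 size factors, TMM over all 4 libraries, other filters, 2 reads added, and a trend on GC content and length removed.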

Additional observations from a re-analysis of the deposited data

How the results depend on the processing

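Without a filter on level 299 genes passed the size rule, 180 of them lower in T1202K, and with at least 5 CPM in either library 12 did, 5 higher and 7 lower. That stricter filter left 1 list member of 9 and an SD of log2 ratios of 0.236 against 0.362, since it keeps better counted genes. The 1.5-fold threshold, added after the values were seen, gave 539 genes, 264 higher and 275 lower. Under the 3 other scalings, 2 added reads and removal of the GC and length trend, 169 to 200 genes passed, of which 166 to 186 were among the main 195. L1CAM lost its call with TMM over all 4 libraries (-0.997) and with 2 reads added (-0.94), and SPDYE21P fell below the filter with TMM over all 4 libraries (0.971 CPM in T1202K). Total counts moved the median of all genes from 0.02 to -0.02. Of 42 lists, 36 kept the sign of their median relative to all genes under every alternative run; the 6 others were the PBAF, ATF4, p53, NF-kB, HOX and keratinocyte lists. No paired analysis was possible because each construct has 1 library, and leaving out a library was not possible for the same reason. Genes with few reads are limited by depth: under 1 CPM the counting error alone was 0.686 log2 units.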
